A study of Homo sapiens with 6 samples.

Results

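GC-poor promoters of protein-coding genes were examined for open chromatin in MCF10A cells whose Zn2+ supply had been lowered or raised. One start site, the 5' end of the gene record in GENCODE release 44, was taken for each of 19970 protein-coding genes on chromosomes 1 to 22 and X. A promoter was a member when the hg38 sequence within 500 bp on either side of that start site held less than 50% G and C and no protein-coding gene started on the other strand within 1000 bp. This rule, which uses no measured value, gave 4182 members, or 20.9% of all promoters. It left 13109 GC-rich promoters for comparison, and 2679 promoters with a head-to-head partner formed a bidirectional class of any GC content.

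MCF10A is an established, non-tumorigenic line of human mammary epithelium and was used as wild type. ATAC-seq, in which the Tn5 transposase inserts adapters into accessible DNA, was done on 6 libraries, 2 for each of 3 conditions. All cells first stood for 30 min in a phosphate-free buffered salt solution, after growth in medium with horse serum, EGF, hydrocortisone, cholera toxin and insulin. They then received no treatment (control), 50 μM of the Zn2+ chelator tris(2-pyridylmethyl)amine (TPA) or 30 μM ZnCl2 for a further 30 min, so that both treatments were compared with the same control libraries. All libraries come from a single cell line.

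Mammalian promoters fall broadly into a GC-rich kind with CpG islands, found at housekeeping and developmental genes, and a GC-poor kind that is typical of tissue-restricted genes. CpG dinucleotides are lost over evolution where cytosines are methylated in the germ line, so GC-poor promoters usually hold few of them. GC-poor promoters more often carry a TATA box, which positions the transcription machinery, and many depend on cell type-specific factors to become accessible.

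The sequences of 10 members show the range of these promoters. Each run gives the 150 bases of hg38 directly upstream of the start site, read from 5' to 3' on the strand of the gene, and capitals mark each CG dinucleotide and any TATAAA. The following 3 members are shown because their open regions ranked highest over the 6 libraries.
SUCO, chr1:172532199-172532348, plus strand: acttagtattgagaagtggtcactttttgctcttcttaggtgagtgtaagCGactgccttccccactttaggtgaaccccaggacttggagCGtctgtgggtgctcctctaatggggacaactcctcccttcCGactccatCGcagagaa
LBR, chr1:225428926-225429075, minus strand: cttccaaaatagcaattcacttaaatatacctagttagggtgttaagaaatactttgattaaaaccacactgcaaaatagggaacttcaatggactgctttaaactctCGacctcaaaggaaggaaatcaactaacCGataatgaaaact
UBP1, chr3:33441372-33441521, minus strand: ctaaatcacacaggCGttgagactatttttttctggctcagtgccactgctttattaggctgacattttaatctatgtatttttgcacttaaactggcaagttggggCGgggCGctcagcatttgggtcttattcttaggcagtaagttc
The next 4 members were open in no library, and each is the alphabetically first such member of a gene family or tissue list that could be shown. They belong to albumin (ALB, the main plasma protein of the liver), a type I interferon, an olfactory receptor and a hair keratin-associated protein.
ALB, chr4:73396964-73397113, plus strand: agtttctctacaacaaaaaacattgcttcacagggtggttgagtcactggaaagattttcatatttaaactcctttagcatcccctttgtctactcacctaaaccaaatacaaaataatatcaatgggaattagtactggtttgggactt
IFNA1, chr9:21440289-21440438, plus strand: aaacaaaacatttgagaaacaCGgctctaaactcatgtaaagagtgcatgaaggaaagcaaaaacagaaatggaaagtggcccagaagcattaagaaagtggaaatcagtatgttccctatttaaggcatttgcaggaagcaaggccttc
OR10A2, chr11:6862907-6863056, plus strand: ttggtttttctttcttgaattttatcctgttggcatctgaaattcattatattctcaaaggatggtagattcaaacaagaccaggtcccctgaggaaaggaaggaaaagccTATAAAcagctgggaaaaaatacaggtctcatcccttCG
KRTAP1-1, chr17:41041451-41041600, minus strand: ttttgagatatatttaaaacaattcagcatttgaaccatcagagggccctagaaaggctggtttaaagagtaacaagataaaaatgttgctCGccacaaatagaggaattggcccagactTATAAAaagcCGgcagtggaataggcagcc
The last 3 members changed their call with a treatment: HCAR2 was gained with TPA, and GLRX2 was gained and GLRX5 lost with ZnCl2.
HCAR2, chr12:122703358-122703507, minus strand: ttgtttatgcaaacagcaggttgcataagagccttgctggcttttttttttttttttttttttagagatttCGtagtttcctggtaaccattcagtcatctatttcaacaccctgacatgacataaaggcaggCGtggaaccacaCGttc
GLRX2, chr1:193106115-193106264, minus strand: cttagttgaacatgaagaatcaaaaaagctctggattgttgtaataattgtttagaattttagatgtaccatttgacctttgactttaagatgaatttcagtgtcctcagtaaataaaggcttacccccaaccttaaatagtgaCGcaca
GLRX5, chr14:95533353-95533502, plus strand: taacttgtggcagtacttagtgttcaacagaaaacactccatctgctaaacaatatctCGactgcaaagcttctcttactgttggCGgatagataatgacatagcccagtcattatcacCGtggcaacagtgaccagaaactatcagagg
The runs of the always-open members held 2 to 4 CG dinucleotides and those of the never-open members 0 to 2. TATAAA was present in the runs of OR10A2 and KRTAP1-1, and in no other of the 10.

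The lists differed in ways that touch every count of open promoters. Each library had its own list of open regions from the caller HMMRATAC, without pooling, and read depth is unknown because the lists hold no counts. A list held between 18887 and 44641 regions on the assembled chromosomes, with control replicate 2 the longest and ZnCl2 replicate 2 the shortest. Regions over 10 kb numbered 998 in TPA replicate 2 and 29 to 157 in the other libraries, and such a region covered 88 members in TPA replicate 2 and at most 17 elsewhere. Counts are therefore also given at equal list length, where each list was limited to its 18887 regions of highest score. The score was used only as a percentile, from 0 to 100 within its own list. The study's methods call the replicates biological and its results call them technical, so p-values may measure technical spread only. With 2 libraries against 2, the exact permutation test cannot give a p below 0.33.

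Most GC-poor promoters were closed. An open region covered the start site of 346 and 682 members in the control replicates, of 472 and 578 after TPA and of 519 and 362 after ZnCl2. These counts correspond to 8.27% and 16.3% of members in the control, 11.3% and 13.8% with TPA and 12.4% and 8.66% with ZnCl2. In the same libraries the open share of GC-rich promoters was 3.94 to 6.29 times as high. The GC-poor share lay below the GC-rich share in 6 of 6 libraries, by 45.2 percentage points on average (SD 3.72, n = 6; two-sided exact sign-flip permutation test, p = 0.031, the smallest this test allows). At equal list length the members' share ranged from 6.50% in control replicate 1 to 9.37% in control replicate 2. In all, 228 members (5.45%) were open in every library, 584 (14%) in 1 to 5 and 3370 (80.6%) in none.

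The open share rose with GC content inside the GC-poor class as well. Of 37 promoters with 25 to 30% GC none was open in all 6 libraries, and of 356 with 30 to 35% GC likewise none. The share open in all 6 was 1.30% of 849 promoters at 35 to 40% GC, 3.60% of 1307 at 40 to 45% and 10.4% of 1633 at 45 to 50%. Directly across the limit, 23.9% of 2242 promoters at 50 to 55% GC were open in all 6. The limit thus lies within a gradient. More than 3 members tied at 49.95% GC, directly below it. Of 3 taken from that tie, MAP7D3 and DNPEP were open in no library and HLA-F in 4. Other members with the same GC content, among them DNAJC2, SENP6 and ZNF30, were open in all 6, so these 3 do not stand for the tie. Of 3 promoters taken just above the limit, all with 50.05% GC, ARHGAP33 was open in 1 library and C10orf67 and CACYBP in none.

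**Figure D1:**
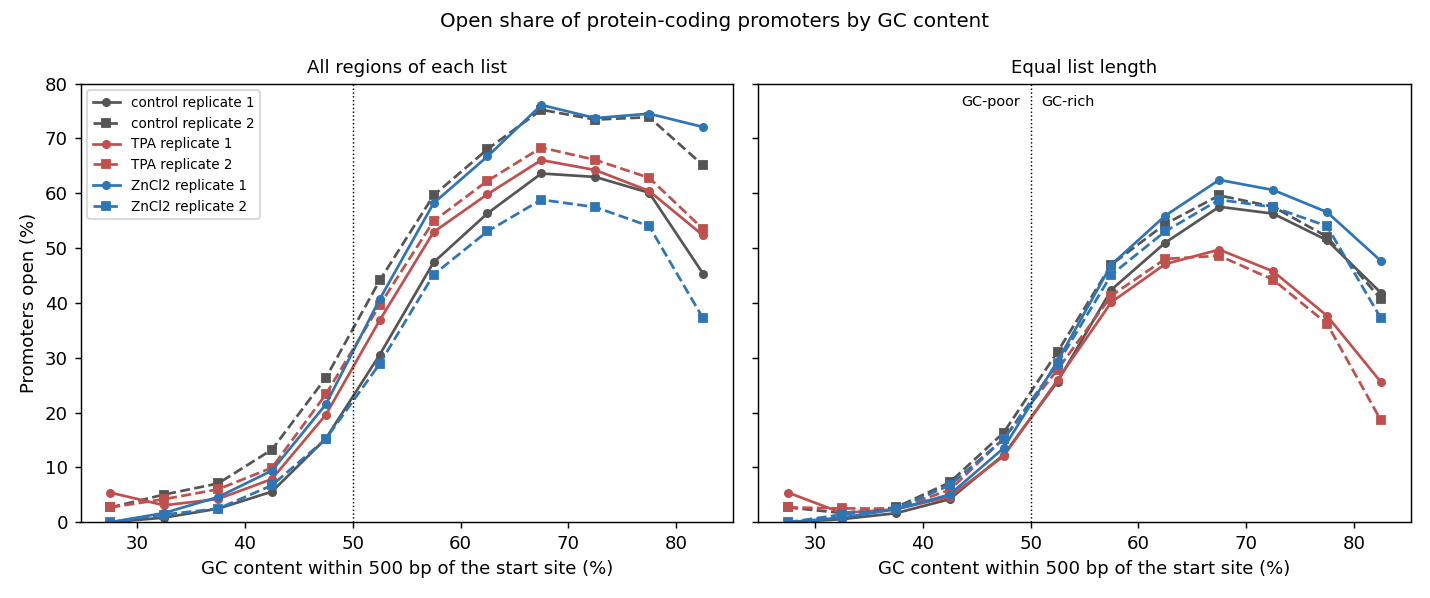
Share of non-bidirectional protein-coding promoters that were open (y axis, %) against GC content in bins of 5 percentage points (x axis), 1 line per library, for all regions (left) and at equal list length (right). The dotted line marks the 50% limit. Every library goes from at most 5.41% open at 25 to 30% GC to between 15.2% and 26.3% at 45 to 50%.

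Open members were richer in CpG than closed members, a property the rule does not use. The observed to expected CpG ratio, which corrects the CpG count for base composition, had a median of 0.608 in members open in all 6 libraries, 0.352 in those open in 1 to 5 and 0.206 in those open in none. The median GC content was 47.4% in the always-open and 42.5% in the never-open members, so part of this comparison is one of GC content. The members with 45 to 50% GC were split into 4 groups of nearly equal size by CpG ratio, which had median GC contents of only 47.3% to 48.2%. In the group with the highest ratio (408 members) 31.9% were open in all 6 libraries, against 2.45% of the 409 members with the lowest ratio. The open share of the highest group exceeded that of the lowest in 6 of 6 libraries, with 51.4% ± 8.28 against 7.29% ± 2.72 (SD, n = 6) and differences of 36.0 to 51.2 points (two-sided exact sign-flip permutation test, p = 0.031, not adjusted). This comparison was chosen after the data were seen.

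Short motifs were counted from 250 bp upstream to 50 bp downstream of the start site, on both strands unless stated. GGGCGG, the core of the GC box bound by SP factors, was present at 22.8% of always-open and 5.37% of never-open members, against 52.4% of all promoters. CCGGAAG, a form of the ETS site, was present at 9.21% and 1.39%, against 11.8% of all promoters. TATAAA on the gene's strand 40 to 16 bp upstream showed the reverse order, with 3.07% of always-open and 7.54% of never-open members, and 3.02% of all promoters. The AP-1 sequence, TGACTCA or TGAGTCA, stood at 8.33% of always-open, 11.3% of partly open and 5.96% of never-open members, against 3.99% of all promoters. CCAAT was found at 46.0% and 41.7% of always-open and never-open members, and at 35.9% of all promoters. These shares are descriptions of the letters in a window and do not show binding.

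The position of the start site mattered for what was called closed. For 2209 members (52.8%) the start of the transcript tagged as canonical by Ensembl lay elsewhere than the 5' end of the gene record. Any other base counted as elsewhere, even 1 bp away as in MTRF1. Of 1640 never-open members with a canonical start elsewhere, 369 (22.5%) had that start open in all 6 libraries. Members with a canonical start elsewhere were open in all 6 in 7.51% of cases (166 of 2209). Members whose canonical start was the 5' end of the gene record were so in 3.14% (62 of 1973). The regions themselves reached further into the gene than away from it. Over the always-open members the median reach upstream of the start site was 380 bp in control replicate 1 and 728 bp in control replicate 2, and downstream 1012 and 1706 bp. For always-open GC-rich promoters the upstream medians were longer, at 631 and 1030 bp, with downstream medians of 1013 and 1666 bp. In each library 12.1% to 18.2% of open members shared their region with the start site of another protein-coding gene.

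The gene families in the class ranged from almost entirely closed to almost entirely open. Of 387 olfactory receptor promoters, which serve the nasal epithelium, 382 were open in no library. All 17 type I interferon, 39 hair keratin-associated protein, 20 X-linked cancer-testis antigen and 12 liver promoters were closed throughout, as were 5 of 5 neuron and muscle promoters. Taste receptors and beta-defensins had 22 of 23 and 35 of 36 members open in no library. Against these, 80.6% of all members were open in none, with a median GC content of 43.4%. The median GC content of the closed lists lay on either side of that value. It was 38.9% for interferons, 39.3% for olfactory receptors, 41.1% for liver genes and 43.0% for keratin-associated proteins. For neuron and muscle genes it was 44.8% and for cancer-testis antigens 47.2%.

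A few members of closed families carried calls. OR14A2 was the only olfactory receptor open in all 6 libraries, with percentiles of 66.9 and 91.9 in the control, 87.2 and 89.4 with TPA and 45.9 and 69.9 with ZnCl2. OR1M1 and OR7G2 were open in TPA replicate 2 only, where a single region of 51200 bp covered both. FAP, a serine protease known from activated fibroblasts, was the 1 fibroblast and endothelial member of 9 that was open, and it was open in all 6 libraries. The canonical start of FAP, 1706 bp away, was open in only 1 library. CD14, the monocyte co-receptor for bacterial lipopolysaccharide, was the 1 open member of 8 immune cell genes, in 5 libraries. The immune, liver and neuronal lists outside the GC-poor class had 2 of 16, 0 of 12 and 0 of 18 promoters open in all 6 libraries.

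Among the gene lists, histone and ribosomal protein genes, which all dividing cells use, had the largest shares of members open in all 6 libraries. Their median GC content was also high within the class, at 48.55% and 49.35%, against 43.4% for all members. The part of GC content in their open calls was not tested. Of 22 replication-dependent histone members, which supply nucleosomes in S phase, 11 were open in all 6 libraries, 9 in some and 2 in none. H2BC18 and H3C13 shared an open region in every library, at percentiles of 92 and 96.6 in the control, 95.7 and 97.7 with TPA and 91.4 and 69.9 with ZnCl2. Of 8 cytosolic ribosomal protein members 3 (RPL30, RPL34 and RPS26) were open in all 6 libraries and 2 in none. RPL35A was open in all libraries but ZnCl2 replicate 2. Of 60 zinc finger genes named ZNF 6 were open in all 6 libraries, led by ZNF684 with percentiles of 78.3 to 92.8, and 41 in none. By comparison, 49.3% of the 448 ZNF genes outside the class were open in all 6.

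The lists of the mammary and keratinocyte lineages differed from each other. Of 7 basal mammary epithelial members none was open in all 6 libraries, 5 were open in some and 2 in none, whereas 18 of 38 basal genes outside the class were open in all 6. ANXA1, an inhibitor of phospholipase A2, was called in control replicate 2 at percentile 25.5, in TPA replicate 2 at 42.9 and in ZnCl2 replicate 1 at 8.31. EPCAM, an epithelial adhesion molecule, was called in TPA replicate 2 only, inside a region of 18450 bp, and CDH3 (P-cadherin) in 4 libraries at percentiles of 7.83 to 19.9. The canonical starts of EPCAM and CDH3 lay 24153 and 9121 bp away and were open in 4 and 5 libraries. Of 10 epithelial serpin and kallikrein members 6 were open in no library, and SERPINB4, SERPINB11 and SERPINB13 were open in TPA replicate 2 only. There SERPINB4 and SERPINB11 lay in 1 region of 18240 bp. SERPINB5 (maspin), a serpin of myoepithelial and basal cells, was the 1 member of that list open in all 6 libraries, with percentiles of 32.6 and 70.9 in the control, 68.6 and 60.5 with TPA and 58.1 and 7.16 with ZnCl2. Of 25 epidermal differentiation members 19 were open in none and only S100A12 in all 6, and IVL (involucrin) was open in every library except control replicate 1. Of 13 luminal and milk members, 12 were open in no library.

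Cytokine genes were divided between open and closed promoters. Of 17 cytokine and chemokine members 9 were open in 1 to 5 libraries, 8 in none and none in all 6. CXCL8, which encodes the neutrophil attractant interleukin-8, was open in control replicate 2 at percentile 18.4 and with TPA at 27.4 and 49.5, and had no call with ZnCl2 or in control replicate 1. MMP1, interstitial collagenase, was open in both controls at percentiles of 2.30 and 35.2, in TPA replicate 1 at 14.5 and in ZnCl2 replicate 1 at 11.4. Of the 36 metallothionein and zinc transporter genes only 4 were GC-poor, and 3 of these were open in no library. SLC39A8 (ZIP8), an importer of Zn2+ and other divalent metals, was the 1 open member, with percentiles of 32.6 and 47.7 in the control, 38.5 and 26.8 with TPA and 56.9 and 45.2 with ZnCl2. Its ZnCl2 and control percentiles overlapped, and its canonical start, 85776 bp away, was open in all 6 libraries.

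**Figure D2:**
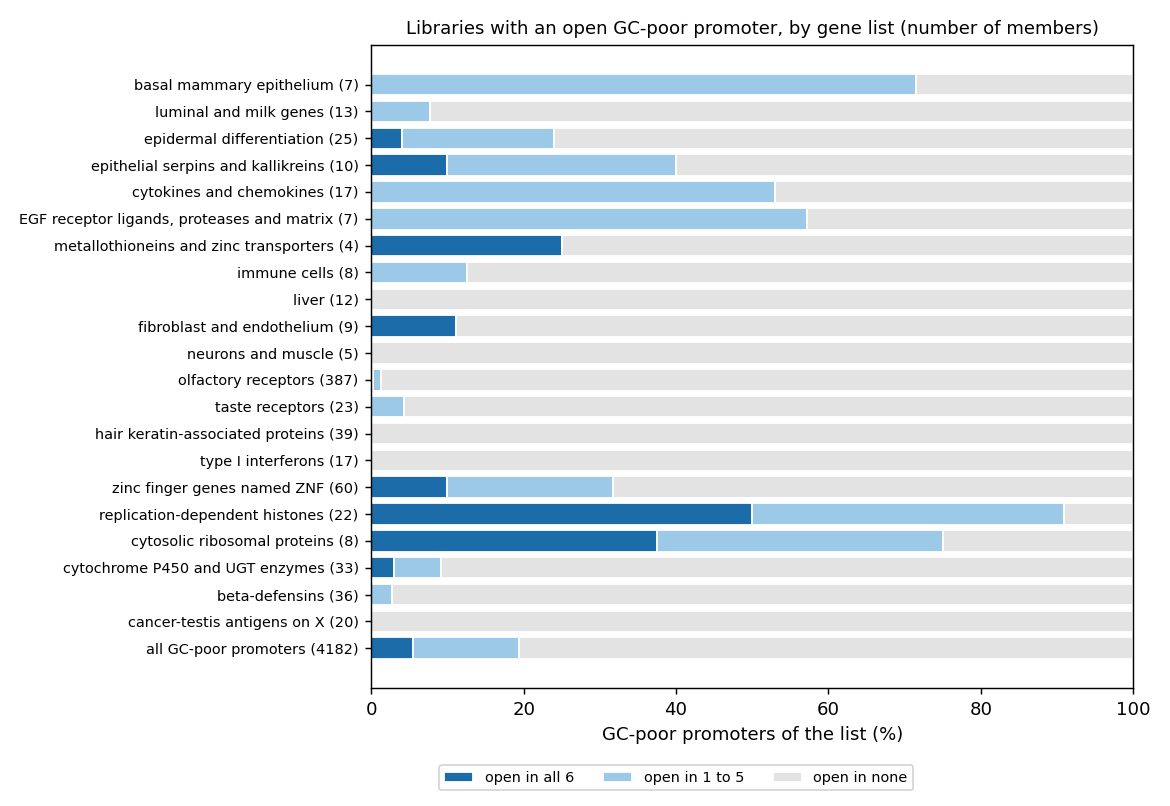
Percentage of the GC-poor promoters of each gene list (x axis) that were open in all 6 libraries (dark blue), in 1 to 5 (light blue) or in none (grey), with the number of members in parentheses. Histone and ribosomal protein lists have the largest dark bars, with 11 of 22 and 3 of 8 members, and the bars of liver, interferon and keratin-associated protein genes are grey throughout.

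Among the always-open members a small group ranked near the top of every list. SUCO, a gene of bone formation and endoplasmic reticulum function, was at the 99.3 to 99.7 percentile in the 6 libraries. LBR, the lamin B receptor of the inner nuclear membrane, ranged from 96.3 to 99.2 with regions of 4700 to 5110 bp. UBP1, a CP2-family transcription factor, ranged from 97.5 to 99.1, and FER, a non-receptor tyrosine kinase, from 96.9 to 99.0. In SUCO, LBR and UBP1 the canonical start lay 801 to 966 bp away and was also open in all 6 libraries. Only 17 of the 228 always-open members (7.46%) exceeded the 90th percentile in every library, against 11.5% of 5772 always-open GC-rich promoters. A member's percentile ranged over 35.9 points between its lowest and highest library at the median, and over 27.4 points for GC-rich promoters.

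The widest regions belonged to other members. ALOXE3, an epidermal lipoxygenase, had a median width of 7150 bp (4000 to 10080 bp over the libraries) at a mean percentile of 63.1. SCNN1A, the alpha subunit of the epithelial sodium channel, followed at 5825 bp with a mean percentile of 59.6, and the histone gene H2BC10 5625 bp and 67.3. For HJV, which encodes hemojuvelin, the region was 32310 bp wide in TPA replicate 2 and 3440 to 5910 bp elsewhere. The canonical start of HJV lay 15011 bp away and was open in 1 library.

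Whether treatment changed the class as a whole was addressed by 1 value per library. The open share of members was 12.3% ± 5.68 (SD, n = 2) in the control and 12.5% ± 1.79 with TPA, a difference of 0.263 percentage points (two-sided exact permutation test, p = 1.0). With ZnCl2 it was 10.5% ± 2.65, a difference of -1.76 points (exact permutation p = 1.0). Both differences changed sign at equal list length, to -0.251 and 0.0956 points. The median width over the 228 always-open members was 1510 and 2545 bp in the control libraries. It was 1735 and 1780 bp after TPA, and 1895 and 2435 bp after ZnCl2. The treated values lay between the control values for both agents (exact permutation p = 1.0 for each). The median percentile was 65.3 and 82.3 in the control, 73.2 and 80.7 with TPA (p = 1.0) and 76.5 and 54.2 with ZnCl2 (exact permutation p = 0.667). The mean differences in percentile were 3.15 points with TPA and -8.45 with ZnCl2. At equal list length, over the 170 members open in all 6 libraries there, they were 0.387 and -1.71 points. None of these differences exceeded the spread between replicates.

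Compared with GC-rich promoters in the same library, the members' regions were narrower over all regions, an order that depended on the regions used. The difference in median width over always-open promoters was -207 bp (SD 71.9, n = 6) and was negative in 6 of 6 libraries (two-sided exact sign-flip permutation test, p = 0.031, or 0.0469 after Benjamini-Hochberg adjustment over 3 such comparisons, which is also the adjusted value for the open share). The width difference at equal list length was -88.3 bp and no longer passed the test (exact sign-flip permutation p = 0.0625). In the upper 50% of each list by score it reversed to 80 bp (exact sign-flip permutation p = 0.0938). The difference in median percentile was -6.04 points (SD 5.43, n = 6), lower in 5 of 6 libraries, and did not pass (exact sign-flip permutation p = 0.0625, also 0.0625 adjusted).

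The distance between the classes was smaller with TPA in median percentile and median width, in a design whose test cannot reach 0.05. The members' median percentile minus that of GC-rich promoters was -8.59 and -3.88 points in the control, -3.20 and 1.38 after TPA and -7.51 and -14.5 after ZnCl2. The TPA values lay above both control values, by 5.33 points on average. At equal list length the difference was 8.10 points (exact permutation p = 0.33 for each, the smallest possible). The gap in median width was -200 and -285 bp in the control, -145 and -140 bp after TPA and -305 and -165 bp after ZnCl2. Both TPA gaps were smaller than both control gaps, by 100.0 bp on average and by 95 bp at equal list length (exact permutation p = 0.33 for each), while the ZnCl2 gaps lay on either side of the controls. These comparisons of percentile and width were chosen after the data were seen. Both TPA differences kept their sign in 15 of 15 alternatives, but TPA and control libraries were not always apart. For width they overlapped in the upper part of each list (20 bp) and with regions within 500 bp (80 bp). They also overlapped below 45% GC (92.5 bp), at the canonical start (95 bp) and over promoters open in each library (145 bp). Without ZnCl2 replicate 2 the TPA and control libraries overlapped in width as well (45 bp). For percentile they overlapped at the canonical start (5.26 points). Without regions over 10 kb both stayed apart (85 bp and 5.63 points). The gap in open share, GC-poor minus GC-rich, was -45.8 points ± 2.90 in the control and -44.5 ± 0.174 with TPA (SD, n = 2), a difference of 1.32 points (exact permutation p = 1.0). With lists of equal length that difference was 6.11 points (exact permutation p = 0.33) and lay outside the spread of the controls, with a GC-rich share of 48.1% in the control and 41.8% with TPA and a members' share of 7.94% and 7.69%. After Benjamini-Hochberg adjustment over 12 comparisons of treated with control libraries, every p was 1.0.

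**Figure D3:**
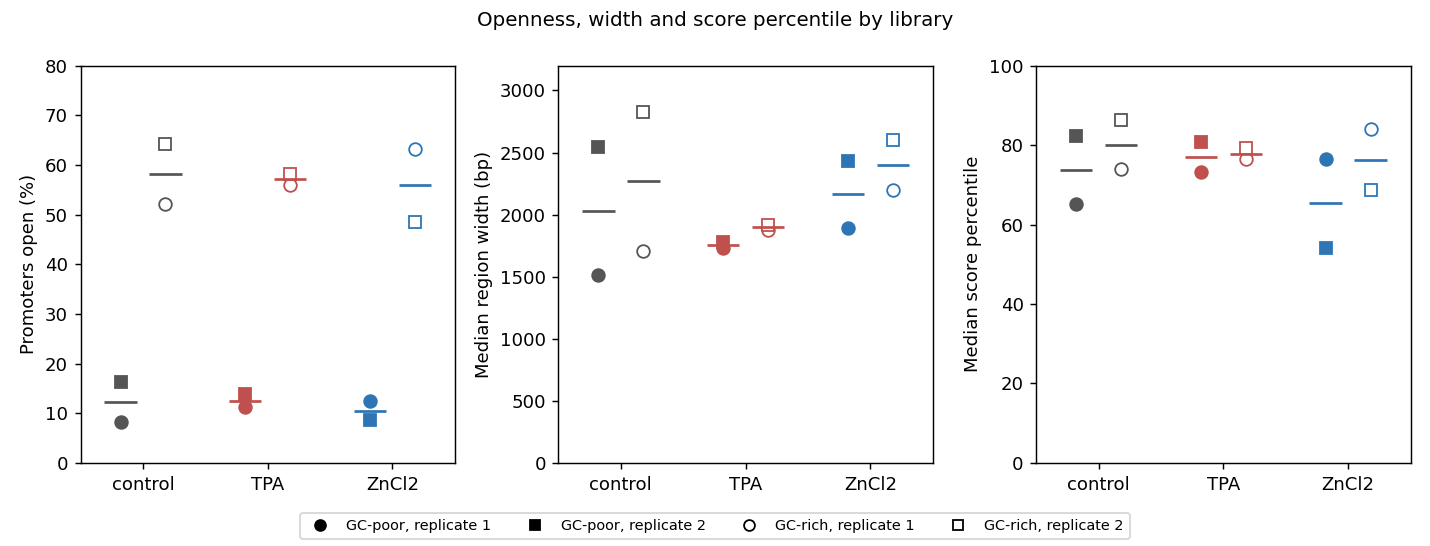
Open share (%), median region width (bp) and median score percentile (y axes) of GC-poor (filled) and GC-rich (open symbols) promoters, with circles for replicate 1, squares for replicate 2 and a line at the mean of 2 libraries; width and percentile are over promoters open in all 6. The GC-poor shares, from 8.27% to 16.3%, lie far below the GC-rich shares in every condition, and the treated values of each measure overlap the range of the 2 control libraries.

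Single promoters were called gained when both treated and neither control library had an open region over the start site, and lost in the reverse case. With TPA 10 members were gained and 9 lost, of 4182. Over all 19970 protein-coding promoters 0.25% were gained and 0.611% lost, against 0.239% and 0.215% of members. At equal list length 12 members were gained and 21 lost (0.287% and 0.502%), beside 0.651% and 3.49% of all promoters. These shares depend on the denominator, since most members were never open. Of promoters open in at least 1 library at equal list length, 2.15% of members and 1.26% of GC-rich promoters were gained, and 3.77% and 7.89% were lost. The counts depend on both controls, and leaving 1 out loosens the rule, since fewer libraries must be apart. Without control replicate 2, the longest list, 123 members counted as gained, and without control replicate 1, a shorter list, 149 counted as lost. The share over all promoters is not given for these 2 settings.

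The promoters gained with TPA differed in how they looked in the other libraries. HCAR2, a receptor for niacin and ketone bodies, was open at percentiles of 72.8 and 83.3 with TPA and had no call elsewhere. COL17A1, the transmembrane collagen of hemidesmosomes, was open with TPA only, at percentiles of 17.3 and 49.5, with regions of 2480 and 1040 bp and no other region within 23741 bp in the controls. IL1A, the alarmin interleukin-1 alpha, was open at 36.4 and 24.5 with TPA and at 1.76 in ZnCl2 replicate 1. TLR1 and TLR6, receptors for bacterial lipopeptides that pair with TLR2, start at the same base, so that these 2 members stand for 1 promoter. They were gained with both agents, at 60.0 and 78.6 with TPA and 62.4 and 50.0 with ZnCl2. In the controls the nearest regions lay 494 and 474 bp away. This base is the canonical start of TLR6, whereas that of TLR1 lay 52026 bp away and was open in no library. CDKN1A, which encodes the cell cycle inhibitor p21, was open at 44.3 and 39.2 with TPA and at 36.9 in ZnCl2 replicate 2, and its canonical start 2254 bp away was open in all 6 libraries.

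Broad regions and nearby calls accompanied many of these changes. Of the 10 members gained with TPA 7 lay in a region over 10 kb in at least 1 TPA library, among them HCAR2 (13660 and 13320 bp), KIR2DL1 (26250 and 41580 bp), GLMP (36760 and 18060 bp) and the TLR1 and TLR6 start (35740 and 35730 bp). When regions over 10 kb were left out of all lists, 4 members were gained. KIR2DL1, an inhibitory receptor of natural killer cells, was also open in ZnCl2 replicate 1, within a region of 15590 bp. The part of broad regions in these gains was not tested further.

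Most members lost with TPA had an open region close by. For 7 of the 9 lost members an open region lay within 500 bp of the start site in both TPA libraries. EBF1, a transcription factor known from B cells, was open at percentiles of 73.9 and 85.9 in the control and 84.1 in ZnCl2 replicate 1, and with TPA the nearest regions ended 125 and 85 bp away. PEX2, a ubiquitin ligase of peroxisome import, had percentiles of 92.4 and 97.5 in the control and 96 and 89.3 with ZnCl2, and its nearest regions with TPA lay 64 and 14 bp away. PAPOLA, the nuclear poly(A) polymerase, and HLA-F, a non-classical class I molecule, were likewise open in control and ZnCl2 libraries, with TPA regions within 238 and 226 bp. C1orf198 lost its call with both agents, from 72.7 and 86.6 in the control, with regions 19 to 329 bp away in the 4 treated libraries. TNFSF10, the death ligand TRAIL, had no region within 6045 bp with TPA, and was at 29.3 and 23.3 in the control and 19.9 in ZnCl2 replicate 1. Counting any region within 500 bp of the start site as open, 10 members were gained and 4 lost with TPA.

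With ZnCl2 9 members were gained and 13 lost, or 0.215% and 0.311% of members, where 0.11% and 0.125% of all promoters were gained and lost. With lists of equal length 17 were gained and 13 lost (0.407% and 0.311%), beside 0.926% and 0.626% of all promoters. Of promoters open in at least 1 library at equal list length, 3.05% of members and 2.11% of GC-rich promoters were gained, and 2.33% and 0.983% were lost, so that the order of the classes depends on the denominator. Without control replicate 2 the count of gained members was 58, and without control replicate 1 that of lost members was 161. Here too the rule is looser with a library left out, and the share over all promoters is not given.

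The most highly ranked gain with ZnCl2 was GLRX2, a mitochondrial glutaredoxin, at percentiles of 98.3 and 90. It was also open in TPA replicate 1 at 75.6, and control regions lay 184 and 4 bp from its start site. DDX5, an RNA helicase, was open only with ZnCl2 at 84.9 and 73.5, SLC2A11, a sugar transporter, at 85.2 and 57.9, and PECR, a peroxisomal reductase, at 91.2 and 33.6. In 7 of the 9 gained members a control region lay within 500 bp in both controls, and in 7 the canonical start elsewhere was open in all 6 libraries. None of the 9 had a region over 10 kb in a ZnCl2 library.

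Of the 13 members lost with ZnCl2, 4 had an open region within 500 bp in both ZnCl2 libraries. GLRX5, which serves mitochondrial iron-sulfur cluster assembly, was at percentiles of 94.4 and 96.6 in the control libraries and at 97.1 and 96.2 with TPA, and had regions 558 and 38 bp away with ZnCl2. SEC61G, a subunit of the protein translocon, was at 77.2 and 80.9 in the control, with ZnCl2 regions 84 bp away in both libraries. KLRC3, a natural killer receptor gene, and the gene record ENSG00000255641 shared 1 region of 16340 to 34130 bp in the control and TPA libraries, at percentiles of 83.7 to 94.0. With ZnCl2 the nearest regions lay 316 and 1346 bp from KLRC3. The promoters of ANKRD22, GUCA1C, LSG1, MYOF and NWD1 had no region within 6044 bp in either ZnCl2 library. MYOF, which encodes the membrane repair protein myoferlin, was at 6.84 and 35.2 in the control libraries and at 32.0 and 35.3 with TPA. LSG1, a GTPase of ribosome assembly, was at 15 and 40.3 in the control libraries and at 22.6 and 59.2 with TPA. These members ranked low in control replicate 1, at most at 15. Counting any region within 500 bp as open, 6 members were gained and 8 lost with ZnCl2.

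At equal list length a few further members were named by the rule. PDCD1LG2, the PD-1 ligand PD-L2, and ERCC1, a subunit of a DNA repair nuclease, counted as gained with TPA, and both were open in both controls when all regions were used. Their percentiles there were 22.3 and 49.1 in the control against 67.6 and 76.9 with TPA for PDCD1LG2, and 2.30 and 38.7 against 49.5 and 90.2 for ERCC1. The canonical start of ERCC1 lay 54911 bp away and was open in all 6 libraries. ENSG00000289766 counted as lost with TPA at equal list length, from 78.3 and 85.6 in the control, with a call at 11.2 in TPA replicate 2.

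**Figure D4:**
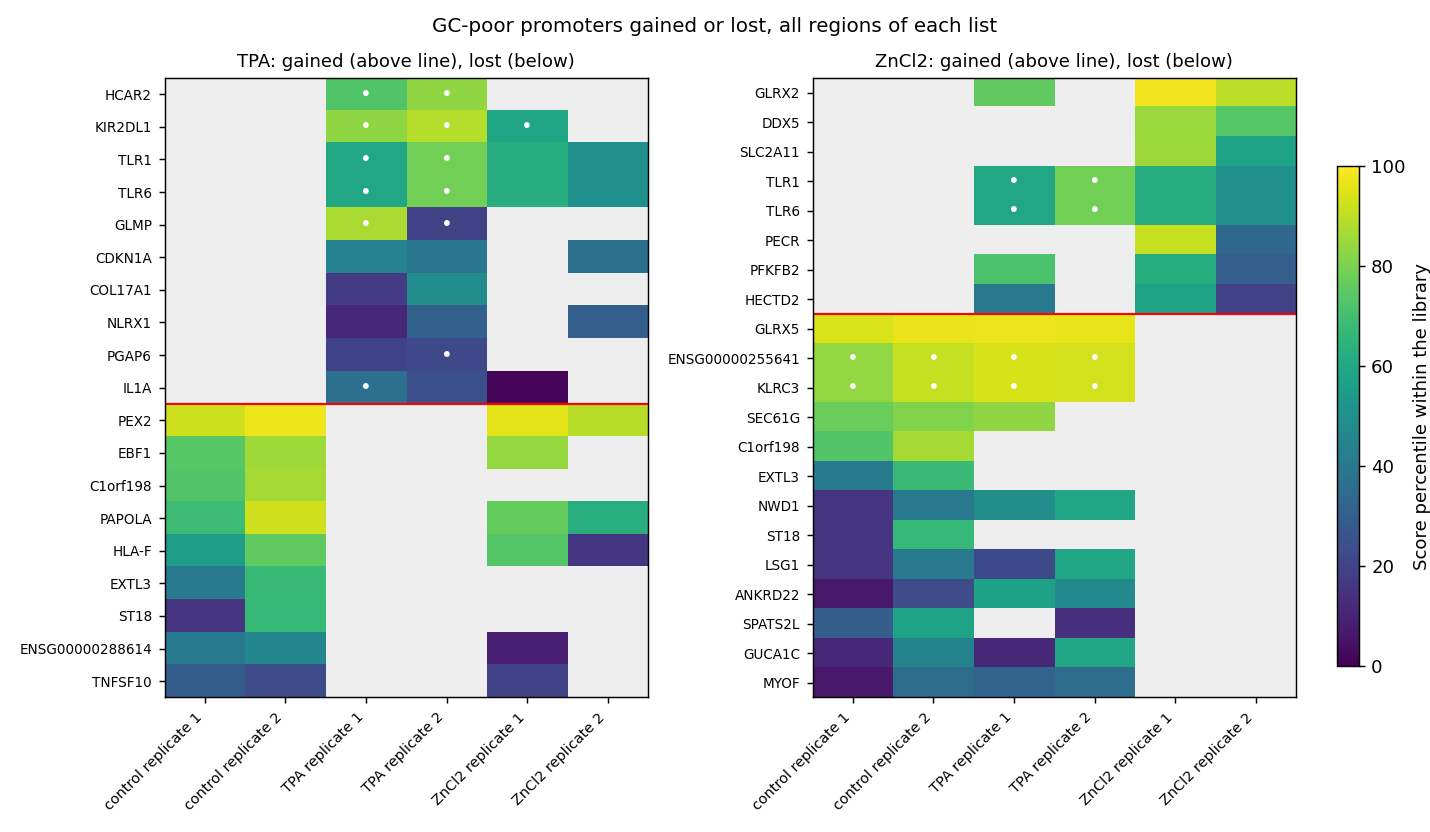
Score percentile (colour, 0 to 100) of GC-poor promoters gained (above the red line) or lost (below) with TPA (left) or ZnCl2 (right) in the 6 libraries, with all regions, for 8 of the 9 members gained with ZnCl2 and all other calls. Light grey marks no open region over the start site and a white dot a region over 10 kb, which 7 of the 10 members gained with TPA had in a TPA library.

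Among the 228 always-open members the balance of higher and lower ranks with TPA depended on single libraries. Percentiles of the TPA libraries lay above both controls for 39 members (17.1%) and below both for 31 (13.6%), where 10.8% and 23.6% of the 7880 always-open protein-coding promoters did so. The median member differed by 2.40 points from the control, with 140 of 228 above 0, and the median over all 7880 by -0.337 points. The regions were wider with TPA for 8 members and narrower for 23 (3.51% and 10.1%), against 1.83% and 16.5% of all always-open promoters. Always-open members with under 45% GC were few, 11 at 35 to 40% and 47 at 40 to 45% GC, and among them 13 were higher and 2 lower. Without control replicate 1 the counts over all members were 42 higher and 136 lower, and without TPA replicate 2 they were 49 and 65, so that lower ranks then prevailed. The share over all promoters is not given for these settings.

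Of the members ranked higher with TPA, 5 are given as those with the largest mean difference. MTHFD2L, an enzyme of mitochondrial folate metabolism, was at percentiles of 15 and 49.1 in the control libraries and at 70.8 and 66.5 with TPA, a mean difference of 36.6 points. The canonical start of MTHFD2L lay 43944 bp away and was open in all 6 libraries. SPTLC3, a subunit of serine palmitoyltransferase, was at 6.84 and 37.0 against 61.4 and 53.9, a difference of 35.8 points. DNAJC2, a ribosome-associated chaperone, differed by 27.7 points, the transcription factor SOX4 by 26.3 and NDUFA5, a subunit of respiratory complex I, by 26.2. For DNAJC2 control replicate 2 reached 73.1 and TPA replicate 1 73.7, so that the groups were only just apart. In all 5 control replicate 1 was the lower control by a wide margin.

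The 5 members with the largest difference below the control were as follows. IFTAP, named for the intraflagellar transport complex, was at 55.7 and 85.6 in the control, 22.6 and 35.3 with TPA and 72.7 and 61.3 with ZnCl2, a mean difference of -41.7 points with TPA. ZNF575 differed by -37.8 points, with TPA values of 8.43 and 26.8, and RUFY3, which acts in neuronal and lysosomal transport, by -34.5, with 22.6 and 53.9. The canonical start lay 7691 bp away for ZNF575 and was open in all 6 libraries. For RUFY3 it lay 17760 bp away and was open in none. RBBP9, a serine hydrolase, differed by -24.0 points and HHAT, the acyltransferase of Hedgehog proteins, by -23.4. In each of the 5 both TPA percentiles were below both control percentiles, which the rule that chose them requires.

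With ZnCl2 no always-open member had both percentiles above both controls, and 36 (15.8%) had both below. Over all 7880 always-open promoters 2.88% were higher and 14.1% lower. The median member differed by -5.91 points, and the median over all promoters by -2.80. ZnCl2 replicate 2 had the shortest list and the lowest median percentile of members, 54.2, and without it 69 members were higher and 59 lower. That setting loosens the rule, and the share over all promoters is not given for it. Regions were wider in 15 members and narrower in 4 (6.58% and 1.75%), against 10.6% and 2.65% of all always-open promoters.

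SLC18B1, a polyamine transporter, had the largest difference with ZnCl2, at 77.2 and 80.9 in the control and 54.4 and 23.5 with ZnCl2, or -40.1 points on average. FAP was at 85.2 and 91.7 in the control, 90.6 and 95.9 with TPA and 79.9 and 23.5 with ZnCl2. MTRF1, a mitochondrial release factor, was lower with both agents, at 41.2 and 60.6 in the control, 17.3 and 39.2 with TPA and 22.4 and 11.6 with ZnCl2. SRI (sorcin, a calcium-binding protein) was at 85.9 and 92.5 in the control and 70.5 and 42.5 with ZnCl2, and the histone gene H4C3 at 35.7 and 56.4 against 24.7 and 2.45. The canonical starts of SLC18B1 and SRI lay 14702 and 6955 bp away and were open in all 6 libraries. In all 5 of these members ZnCl2 replicate 2 had the lowest value of the 6 libraries.

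**Figure D5:**
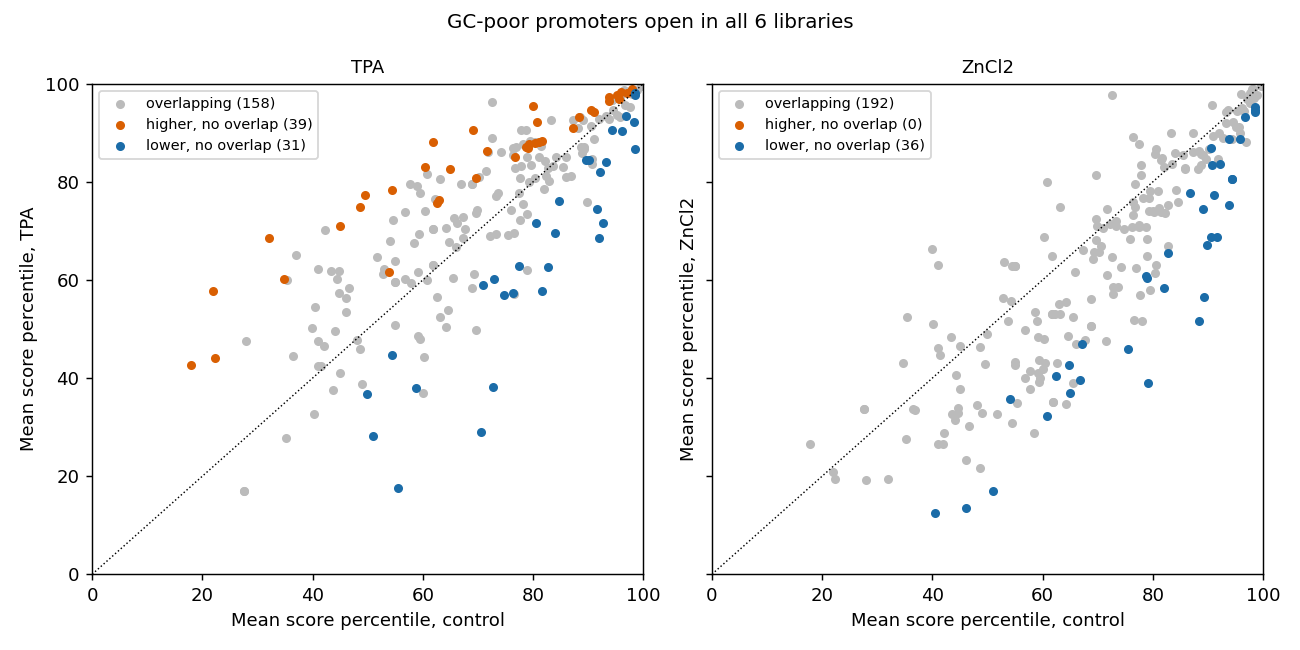
Mean score percentile with TPA (left) or ZnCl2 (right) against the control (x axis), 1 point per GC-poor promoter open in all 6 libraries (228 points, means of 2 libraries). Coloured points had treated and control libraries that did not overlap, 39 higher and 31 lower with TPA and 0 higher and 36 lower with ZnCl2, and the dotted line marks equal percentiles.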

How the data were processed

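ATAC-seq open regions of 6 MCF10A libraries (2 per condition) were analysed. The authors trimmed reads with BBDuk, aligned them to hg38 with HISAT2 2.1.0, checked quality with FastQC 0.11.8, used SAMtools 1.8 and called open regions per library with HMMRATAC, without pooling. The deposited lists give a score per region, whose kind, like the caller's version, is not given in the sources used here. Read depth is therefore unknown, and no counting interval can be given.

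Start sites were taken from GENCODE release 44, with the canonical transcript as tagged there. Sequences were read from hg38. The 72 to 203 regions per library on other contigs were left out, and no blacklist was applied. A promoter was open when a region covered its start site. The score was turned into a percentile within its own list, with ties at the midpoint. Groups were compared with 2-sided exact permutation tests over libraries, and classes with exact sign-flip tests, adjusted by Benjamini-Hochberg. The code was tested on simulated data. Python 3.11.15, NumPy 2.4.6, pandas 2.3.3, SciPy 1.17.1 and Matplotlib 3.10.9 were used.

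The members and gene lists were chosen with earlier results of these data known. Named genes were up to 4 per gene list by mean percentile plus its gained or lost members, up to 5 gained or lost members per treatment, direction and list length, the 5 largest percentile differences without overlap, the 5 highest and 5 widest members, and the 3 on either side of the GC limit. A few items that these rules select are not reported here. Further gained or lost members were named after their values were seen. Alternatives included another list length, GC limit, start site, replicate block and leaving out each library. The replicate numbers come from the sample labels, which do not say that they mark a shared culture or day.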

Additional observations from a re-analysis of the deposited data

How the results depend on the processing

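With 2 libraries per condition and unknown depth, list length and region width limit every count. Counts of members in this part stand without the share over all promoters. At equal list length the open share of members differed from the control by -0.251 points with TPA and 0.0956 with ZnCl2, both reversed, and the gap to GC-rich promoters by -1.59 points with ZnCl2, also reversed. The width difference between the classes was -88.3 bp there (exact sign-flip permutation p = 0.0625) and 80 bp, reversed, in the upper 50% of each list (exact sign-flip permutation p = 0.0938). With a GC limit of 45% TPA gave 4 gained and 3 lost members, 6 and 4 at equal list length, and 13 higher and 2 lower percentiles, and ZnCl2 gave 8 lost, 9 gained and 4 lost at equal list length and 12 lower, with fewer promoters tested. At the canonical start TPA gave 6 gained and 4 lost, 11 lost at equal list length and 16 lower, and ZnCl2 1 gained, and 8 gained and 7 lost at equal list length. The percentile difference between the classes passed the exact sign-flip permutation test (p = 0.031) at -10.6 points with the 45% limit, -11.3 at the canonical start and -13.2 over promoters open in each library. The cause of these changes was not tested.

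The following alternatives were chosen after seeing the data. Over promoters open in each library the ZnCl2 difference in the percentile gap reversed to 0.322 points. The ZnCl2 difference in the width gap, 7.5 bp over all regions, reversed to -45 bp at equal list length, -95 bp in the upper 50%, -15 bp with regions within 500 bp or without regions over 10 kb, -100 bp below 45% GC and -30 bp at the canonical start. With a region within 500 bp counted as open 4 members were lost with TPA and 8 with ZnCl2. Without regions over 10 kb the share difference with TPA reversed to -0.849 points and 4 members were gained.

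The replicate block gave 88 higher and 52 lower percentiles with TPA and 1 higher with ZnCl2. It cannot alter the gained and lost calls, and with 2 pairs its exact p cannot go below 0.5. Deviations of same-numbered libraries correlated across 7880 promoters at 0.172 for control and TPA, -0.452 for control and ZnCl2 and -0.138 for TPA and ZnCl2. The control and TPA lists were longer in replicate 2 and the ZnCl2 list was shorter. These values therefore cannot tell a pairing of libraries apart from list length. As the labels state no pairing, the numbers were not taken to pair the libraries. The crossed pairing, also chosen after seeing the data, gave 23 higher and 123 lower with ZnCl2.

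Leaving out 1 library at a time loosens each call by construction, since fewer libraries must be apart. With TPA the share difference ran from -3.75 to 4.28 points, the width from -785 to 240 bp, the percentile from -6.59 to 11.4 points and the gap in share from -0.732 to 3.37 points. Gained members ran from 10 to 123 and lost from 9 to 149, at equal list length from 12 to 67 and from 21 to 99, with 40 to 158 higher and 31 to 136 lower percentiles. The percentile difference turned negative without control replicate 1 and without TPA replicate 2. With ZnCl2 the ranges were -5.77 to 2.26 points for the share, -365 to 650 bp for the width, -19.2 to 2.21 points for the percentile -4.98 to 5.89 points for the gap in share and -85 to 67.5 bp for the gap in width. Gained members ran from 9 to 58 and lost from 13 to 161, at equal list length from 17 to 59 and from 13 to 68, with 0 to 69 higher and 37 to 181 lower. Between the classes the share ran from -46.3 to -44.1 points and the width from -244 to -169 bp, with 5 libraries whose exact sign-flip p cannot go below 0.0625.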
